A study of Mus musculus with 6 samples.

Results

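Interferon-stimulated genes were examined for chromatin accessibility in leukemia stem cells treated with an inhibitor of guanine nucleotide synthesis. The set holds 37 genes of 22020 in the annotation, a list of names chosen with earlier results of these data known. Their elements were the ATAC-seq peaks within 1000 bp of an annotated transcription start, called promoter peaks, and 123 regions, of 112852 in the genome, that lay in the gene body or within 10 kb of it and outside the promoter windows of that gene. Of the 123, 4 are the promoter peak of another member (Psmb8, Oas2, Oasl1, and Psmb9 with Tap1) and are counted in both. The regions fell in introns (60), between genes (46) and in exons (17).

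ATAC-seq detects accessible chromatin as the DNA that the Tn5 transposase can enter and tag with adapters. There were 3 control samples and 3 samples treated with MMF, all of murine LSCs, which are leukemic granulocyte-macrophage progenitors (L-GMP) of a mouse model driven by the MLL-AF9 fusion. Both groups were labelled as wild type, were cultured with mouse IL3 and differed in MMF (mycophenolate mofetil), an inhibitor of inosine monophosphate dehydrogenase, which the labels give as a treatment of 24 h, while a figure legend of the study gives another time. Nothing in the labels says whether the replicates came from separate mice or cultures, so that the p-values measure only the spread between these samples. Because each sample was a bulk of cells, more cells with an open site and a more open site per cell cannot be told apart.

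Type I interferon binds the IFNAR receptor on the cell surface and activates the kinases JAK1 and TYK2, which phosphorylate STAT2. Together with IRF9 it is part of a complex that binds the interferon-stimulated response element (ISRE) in the promoters of interferon-stimulated genes. The products of these genes sense viral nucleic acids, block viral replication and raise antigen presentation, and in blood progenitors interferon signaling is also known to change proliferation and differentiation.

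The ISRE was searched on both strands as GAAA, any pair of bases and GAAA again, which reads TTTC, a pair of bases and TTTC on the opposite strand. In the 200 bp centered on the promoter summit, 10 of the 33 members with a promoter peak held a match (30.3%, 95% Wilson interval 17.4% to 47.3%), against 1.71% of the 13955 promoters with a peak. In 400 bp the match was found at 15 of 33 members (45.5%) and at 3.70% of all promoters. The sites at 8 of these members follow because they mark where the response element lies within the open promoter. They are printed on the strand of the gene from GRCm38 (mm10), with the match in capitals.
Ifih1: gaagagaatcGAAACAGAAAccgatctgtg
Dhx58: cctccccttgTTTCAGTTTCatttctagag
Zbp1: ccgatttcaaTTTCGATTTCgacacccttt
Eif2ak2: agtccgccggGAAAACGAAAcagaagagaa
Oas3: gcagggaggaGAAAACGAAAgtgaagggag
Rsad2: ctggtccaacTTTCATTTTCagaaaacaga
Usp18: ggatctagggGAAAACGAAAgcttggcggt
B2m: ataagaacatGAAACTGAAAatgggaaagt

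These sites lie on the minus strand at chr2:62646204-62646233 for Ifih1, chr11:100704256-100704285 for Dhx58, chr2:173218997-173219026 for Zbp1, chr17:78882535-78882564 for Eif2ak2, chr5:120777715-120777744 for Oas3 and chr12:26456553-26456582 for Rsad2. They lie on the plus strand at chr6:121245837-121245866 for Usp18 and chr2:122147538-122147567 for B2m. Measured to the nearest annotated start, the match was 7 bp upstream in Ifih1, 88 bp in Zbp1, 68 bp in Oas3, 115 bp in Rsad2, 55 bp in Usp18 and 134 bp in B2m. In Eif2ak2 it was centered 24 bp downstream of a start and in Dhx58 1 bp downstream. Measured to the RefSeq start, the Ifih1 match was 37 bp downstream. Zbp1 held 3 further matches and Usp18 a second, and Ddx58 and Oas2 complete the 10 members. The interferon-gamma site, searched as TTCNNNGAA, was found at 15.2% of the member summits and 4.18% of all.

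Promoters of 3 well-known members carried the element at the start without an open peak in most lists. In the RefSeq sequences from 250 bases before to 50 bases after the start, which covered 28 of the 37 members, 11 members (39.3%) held an ISRE match, against 4.02% of all promoters. They included Isg15, Ifit3 and Ifit1, whose sites follow from the same build and in the same form.
Isg15: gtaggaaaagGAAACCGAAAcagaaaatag
Ifit3: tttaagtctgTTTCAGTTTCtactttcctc
Ifit1: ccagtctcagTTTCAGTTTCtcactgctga

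The Isg15 site lies at chr4:156200871-156200900 on the minus strand, 67 bp upstream of the start. The Ifit3 site lies at chr19:34583397-34583426 and the Ifit1 site at chr19:34640794-34640823, both on the plus strand, 117 bp and 80 bp upstream. Isg15 encodes a ubiquitin-like protein that is secreted or joined to other proteins, and the Ifit genes encode proteins that bind foreign RNA. No list held a promoter peak of Isg15 or Ifit3, and Ifit1 had a peak of 6 to 9 reads in 2 MMF lists and in no control list.

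Each list gives the peaks that passed the caller in a single sample. The control lists held 58496 to 63911 peaks and the MMF lists 80893 to 86556. The value of a peak is its summit level, the number of reads over the summit divided by the genome-wide background of that sample, which scales the libraries to their depth. Backgrounds were 0.620 to 0.729 reads in control and 0.676 to 0.909 in MMF, and the summits of the member promoters held 6 to 109 reads, with a median of 33. Among markers of the labelled cell type, 8 of 10 granulocyte-macrophage progenitor and myeloid genes had a promoter peak in at least 1 list and 5 in all 6. Elane and Fcgr3 had it in 1 control list each, and Mpo and Prtn3, which encode primary granule proteins, had none in any list. No T-cell marker of 3 and 1 B-cell marker of 3 (Ebf1) had a peak. Of 5 erythroid and megakaryocyte markers 4 had a peak in at least 1 list and 3 in all 6, with Gata1 absent.

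Promoter peaks were present for 33 of the 37 members, against 63.4% of all genes, and for 27 members in all 6 lists, against 53.2% of all genes. The members without any promoter peak were Isg15, Ifit3, Oasl2 and Ifi44. A further 6 members had a peak in some lists only. Of these, Irf7, encoding the factor that amplifies interferon production, had it in 3 control and 2 MMF lists, and Oas3, an oligoadenylate synthetase, in 2 control and 3 MMF lists. Rtp4, a membrane-receptor chaperone, had its peak in 2 control and 3 MMF lists, Ifit1 in 2 MMF lists, Parp14, an ADP-ribosyltransferase, in 1 MMF list, and Ddx58, which encodes the RNA sensor RIG-I, in 1 control list. By sample, 29, 30 and 30 members had a promoter peak in the control lists and 30, 31 and 31 in the MMF lists. No member promoter was gained, meaning a peak in all 3 MMF lists and no control list, or lost, the reverse. Over all promoters with a peak 0.924% were gained and 0.0717% lost.

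No promoter of a member of the set passed the test in either direction. The 27 promoters found in every list entered the limma test among 11715 promoters, and 0 were called higher and 0 lower at an adjusted p of 0.05. Over all promoters 1.78% were called higher and 0.521% lower, and after each sample was centered on its median 2.45% were called higher and 0.307% lower. Without adjustment 4 of the 27 (14.8%) had a p below 0.05, against 17.1% of all promoters. With a prior variance that follows the mean value 1 member (Ifih1) was called. The value of a promoter is that of the highest peak near any of its starts in each sample. At 2 of the 27 members (Isg20 and Mx2), and at 4.99% of all promoters tested, the samples took it from separate peaks.

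The median difference of the 27 promoters was 0.05 on the log2 scale of the summit level, with 15 above and 12 below 0. Over all promoters tested the median was -0.10, and 31.9% were above 0. Of the 27 members, 24 lay above that median, and 24 lay above the median of all promoters in the same of 20 bins of mean rank by fold enrichment. These are descriptions of a set with no test, and 27 members rest on 25 peaks because Parp9 and Dtx3l share a promoter, as do Psmb9 and Tap1.

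**Figure D1:**
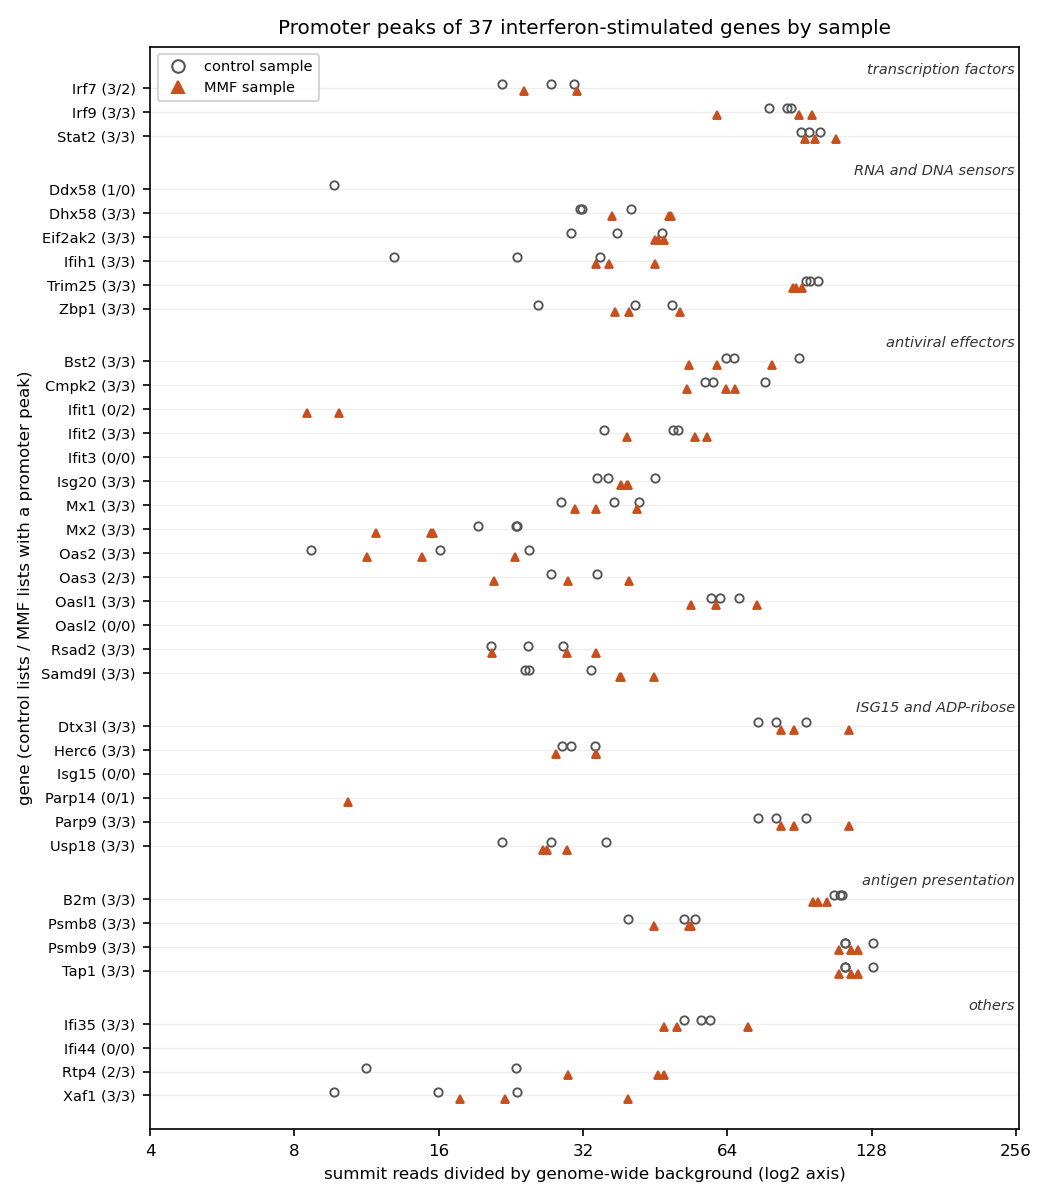
The summit level (reads over the summit divided by the genome-wide background, log2 axis) of the promoter peak of each of the 37 genes is plotted by sample, with open circles for the 3 control and filled triangles for the 3 MMF samples, and numbers in brackets give the lists with a peak. The symbols of the groups overlap for most genes, while among the 27 genes with a peak in every list the MMF samples lie above all control samples in Samd9l and below them in Mx2, B2m and Trim25. Symbols of Isg20, Mx2, Irf7 and Rtp4 come from separate peaks in some samples.

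Among the factors of the pathway, Stat2 and Irf9 had a promoter peak in every list. The Stat2 promoter had control summit levels of 94.7, 91.1 and 99.97 and MMF levels of 108, 97.7 and 93.1. The Irf9 promoter had 78.2, 85.3 and 87.1 in control and 90.2, 60.9 and 96.1 in MMF. The groups overlapped in both genes, with log2 differences of 0.06 ± 0.13 (SE, n = 3 against 3) and -0.05 ± 0.17 and adjusted p-values of 0.825 and 0.906 by limma. The sign for Irf9 turned under other scalings. The Irf7 promoter was lower in level, with 27.4, 21.7 and 30.6 in control and 24.1 and 31.0 in the MMF lists that held it, and the second control value came from a separate peak.

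The promoters of 5 RNA and DNA sensors were tested, and 4 of them had a difference above 0, with a median of 0.30 and no call. Ifih1 encodes MDA5, a sensor of long double-stranded RNA. Its promoter peak (chr2:62645779-62646466) had summit levels of 23.3, 34.7 and 12.9 in control and 36.3, 45.3 and 34.0 in MMF. The control samples were spread widely and their highest lay within the MMF range, and the difference of 0.81 ± 0.29 on the log2 scale had an adjusted p of 0.184 by limma. Without the second control sample the adjusted p was 0.0455. Dhx58 encodes LGP2, a helicase that modulates RIG-I and MDA5. Its promoter (chr11:100704210-100704506) had levels of 31.6, 31.8 and 40.3 in control and 48.4, 36.8 and 48.8 in MMF, a difference of 0.37 ± 0.16 (adjusted p = 0.275, limma). Eif2ak2 encodes PKR, a kinase that stops translation on binding double-stranded RNA. Its promoter (chr17:78882291-78882925) had 30.2, 37.6 and 46.8 in control and 47.3, 45.3 and 45.8 in MMF, a difference of 0.30 ± 0.16 (adjusted p = 0.369, limma). In both genes the groups overlapped. Trim25, a ubiquitin ligase that acts on RIG-I, had a promoter (chr11:88999058-88999865) more open than those of the other sensors, with 98.8, 95.5 and 93.5 in control and 89.1, 87.8 and 91.6 in MMF. All MMF samples were below all control samples there, but by -0.10 ± 0.12 on the log2 scale (adjusted p = 0.688, limma), and ranking by fold enrichment turned the sign.

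The antiviral effectors were the largest group and split evenly. Of 14 genes, 10 were tested, 5 were above 0 and 5 below, and the median difference was 0.01. Samd9l, an antiviral and growth-restraining gene, had a promoter peak (chr6:3399345-3399903) at 24.7, 33.3 and 24.2 in control and 45.1, 38.2 and 38.4 in MMF. Among the 27 promoters tested it alone had all MMF samples above all control samples, with a difference of 0.58 ± 0.16, but it missed the threshold (adjusted p = 0.0898, limma). It passed when the second control sample was left out (adjusted p = 0.0449). Over all promoters 6.21% had all MMF samples above all control samples and 17.9% had all below.

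Mx2 encodes an interferon-induced dynamin-like GTPase, and the annotation lists it as a polymorphic pseudogene. Its promoter (chr16:97535085-97536349) had levels of 23.3, 23.1 and 19.3 in control and 15.4, 15.6 and 11.8 in MMF, on summits of 8 to 17 reads. The first and the third MMF values came from a peak separate from that of the other 4 samples. This was the lowest difference among the members, -0.63 ± 0.15, with the lowest adjusted p (0.0614, limma) and an exact permutation p of 0.1, the smallest that 3 against 3 samples allow. Its neighbor Mx1 differed by -0.02 ± 0.17. Bst2, which encodes tetherin, a protein that holds budding virus at the cell surface, had 90.6, 63.6 and 66.1 in control and 79.2, 60.9 and 53.2 in MMF. Cmpk2, a mitochondrial nucleotide kinase, had 57.6, 76.7 and 59.7 in control and 52.8, 66.6 and 63.6 in MMF. The groups overlapped in both genes, with differences of -0.19 ± 0.18 (adjusted p = 0.608) and -0.08 ± 0.16 (adjusted p = 0.814) by limma. The other effectors tested, Ifit2, Isg20, Oas2, Oasl1 and Rsad2, had differences between -0.01 and 0.17 with adjusted p-values of at least 0.659 by limma.

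Of the genes for ISG15 and ADP-ribose modification, 4 were tested, with a median of 0.12 and none called. The peak shared by Parp9 and Dtx3l counts for both genes in this median. Usp18, which removes ISG15 from proteins and restrains the receptor, differed by less than 0.01 in size, with a summit level of 35.7, 21.7 and 27.4 in control and 26.4, 26.9 and 29.6 in MMF. Herc6, the ISG15 ligase of the mouse, had 30.2, 28.9 and 33.9 in control and 34.1, 34.0 and 28.1 in MMF. The promoter shared by Parp9 and Dtx3l, which encode partners in a ubiquitin ligase complex, had 74.1, 80.99 and 93.5 in control and 88.0, 115 and 82.8 in MMF, a difference of 0.19 ± 0.16 (adjusted p = 0.547, limma). The groups overlapped in each of these.

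Antigen presentation genes included the most open promoter of the set. The differences of 3 of 4 genes lay below 0, with the shared peak of Psmb9 and Tap1 counted for both. The promoter shared by Psmb9, an immunoproteasome subunit, and Tap1, a subunit of the peptide transporter, had summit levels of 113, 113 and 129 in control and 120, 116 and 109 in MMF. B2m, the light chain of MHC class I, had a promoter (chr2:122147392-122148166) with 107, 110 and 111 in control and 96.8, 103 and 99.04 in MMF. The MMF samples of B2m all lay below the control samples, with a difference of -0.13 ± 0.12 on the log2 scale that did not pass the test (adjusted p = 0.582, limma). Psmb8, another immunoproteasome subunit, differed by 0.06 ± 0.16.

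Among the remaining members, Xaf1, a binding partner of the apoptosis inhibitor XIAP, was the second highest of all in its difference. Its promoter (chr11:72301220-72301744) had levels of 23.3, 15.9 and 9.67 in control and 22.0, 39.7 and 17.7 in MMF, on 6 to 28 reads. The groups overlapped and the difference of 0.70 ± 0.33 had an adjusted p of 0.301 by limma. Rtp4 has annotated starts far apart. At the peak upstream of its gene body the second control list had a level of 23.1 and the MMF lists 47.3, 29.7 and 45.8. The third control list had 11.3 at a separate peak near another start, so that these are not levels of a single peak, and the first control list held neither. Ifi35, which encodes a leucine-zipper protein, differed by -0.01 ± 0.16.

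The other genes of the interferon pathway, a list of 47 that excludes the members, were read in the same fit. Of these, 36 were tested, 3 were called higher and 1 lower, and their median was -0.05. Over all promoters 1.78% were called higher and 0.521% lower. The genes not tested had a peak in some lists only (7) or in none (4). Among these 7, Tlr7 and Ifi204 were gained, with a promoter peak in 3 MMF and 0 control lists, and none was lost. Their MMF levels were 18.7, 9.92 and 16.3 in Tlr7 and 22.0, 17.0 and 13.3 in Ifi204, on summits of 7 to 20 reads. Over all promoters with a peak 0.924% were gained and 0.0717% lost. Trim30a, a ubiquitin ligase that restrains signaling, had promoter levels of 17.8, 23.1 and 14.5 in control and 44.0, 45.3 and 37.0 in MMF, a difference of 1.21 (adjusted p = 0.00549, limma). Irgm1, a GTPase of cell-autonomous immunity, differed by 1.09 (adjusted p = 0.0236), and Ikbke, which encodes a kinase that activates interferon-producing factors, by 0.96 (adjusted p = 0.0229). The MMF samples lay above all control samples in these 3 genes, but the first and the third control values of Irgm1 and the third control value of Ikbke came from peaks separate from those of the other samples. Tmem173, which encodes the adaptor STING, was the gene called lower, with 22.0, 26.0 and 20.96 in control and 14.3, 12.7 and 16.3 in MMF, a difference of -0.67 (adjusted p = 0.0371, limma). After centering its adjusted p was 0.0598, and Ifi27, an interferon-induced gene, was called higher (adjusted p = 0.0313, against 0.0505 before), which gave 4 called higher and 0 lower. None of the 7 receptors and kinases was called, and the promoter of Ifnar1, a chain of the receptor, differed by 0.02 ± 0.15. None of the 6 factors was called, and none of the 4 inhibitors was called. A further 22 genes of the list are interferon-stimulated genes outside the set, and 13 of them were tested. Their median was 0.11, with 10 above 0 and 3 below, while 31.9% of all promoters were above 0. Trim30a and Irgm1 belong to these 13 and were the 2 called higher before centering, with 0 called lower.

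In the same fit, 2 of 3 mature myeloid markers were called higher. Itgam, which encodes CD11b, rose by 0.83 on the log2 scale (adjusted p = 0.0180) and S100a8, a calprotectin subunit, by 1.32 (adjusted p = 0.00520), and Ly6g had a peak in 2 lists of each group. The third control value of Itgam came from a separate peak. Of the 10 granulocyte-macrophage progenitor and myeloid markers 5 were tested, with 1 called higher and 0 lower. Csf3r, the receptor of granulocyte colony-stimulating factor, rose by 0.76 (adjusted p = 0.0233). The differences of the others were 0.48 in Spi1, 0.31 in Kit, -0.20 in Irf8 and -0.31 in Cebpa, where all MMF samples lay below the control samples, with adjusted p-values of 0.145, 0.522, 0.635 and 0.279 by limma. The called markers moved with the treatment, and their part in the values of the interferon genes was not tested.

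**Figure D2:**
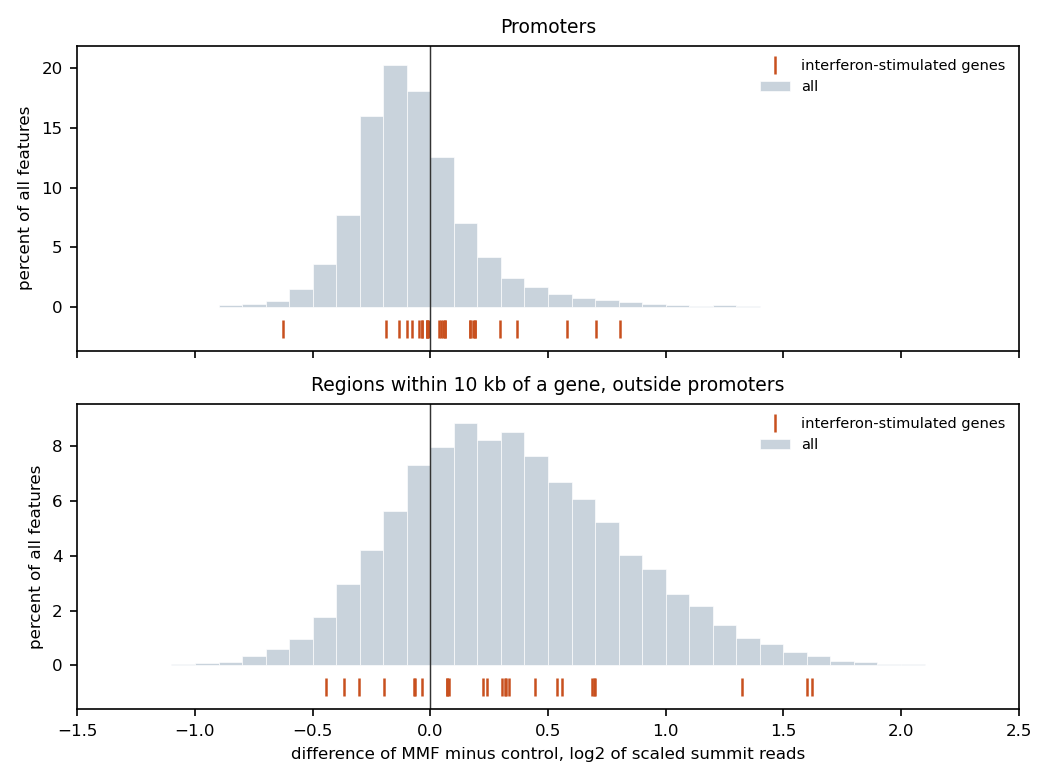
Histograms show the difference of MMF minus control (log2 of the summit level) over all promoters tested (upper) and over all tested regions within 10 kb of a gene and outside promoters (lower), as percent of features, with a tick for each interferon-stimulated gene or its regions. The promoter ticks lie around 0 next to a distribution centered at -0.10. The region ticks lie between -0.44 and 1.62, with 3 regions above 1, and do not reach the ends of the distribution.

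Away from promoters, 5 regions near interferon-stimulated genes were called higher after MMF treatment and none lower, with values scaled to background. Of the 123 regions, 38 were found in every list and entered the limma test among 41182 regions, with 5 called higher and 0 lower. Over all regions 18.6% were called higher and 0.969% lower. The set was not more often called than regions of its kind. Outside every promoter window, 5 of 25 tested regions (20.0%) were called higher, against 24.1% of all such regions within 10 kb of a gene, of which 0.845% were called lower. The median difference of the 25 was 0.30 beside 0.31 for all of these.

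The scaling moved this balance. Centering each sample on its median subtracted 0.35 from every region difference on the log2 scale, after which 6.90% of all regions were called higher and 13.9% lower. The share of higher among called regions thereby fell from 95.04% to 33.2%, and near genes and outside promoters, where 9.01% were then called higher and 7.97% lower, from 96.6% to 53.1%. Among promoters it rose from 77.4% to 88.9%. Relative to the median region, 3 of the 38 member regions were called higher and 7 lower, with a median of -0.28 in place of 0.08. The 3 regions called under both scalings belonged to Trim25, Eif2ak2 and Rsad2.

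The first lay in an intron of Trim25, 7163 bp downstream of its start (chr11:89006319-89006843). Its control summit levels were 15.1, 18.8 and 19.3, and its MMF levels were 57.2, 60.9 and 45.8. It was 3.08-fold higher with MMF, a log2 difference of 1.62 ± 0.18 (adjusted p = 0.00117, limma), and 1.27 after centering (adjusted p = 0.00781). The second lay 8594 bp upstream of the start of Eif2ak2, in an intron of the neighboring gene Sult6b1 (chr17:78890974-78891419). Here the levels were 13.7, 17.4 and 14.5 in control and 45.1, 48.2 and 44.3 in MMF, 3.03-fold higher (a log2 difference of 1.6002 ± 0.17, adjusted p = 0.00102, limma), and 1.25 after centering (adjusted p = 0.00673). Rsad2 encodes viperin, a radical enzyme that makes a chain-terminating nucleotide, and the third region lay between genes 16876 bp downstream of its start (chr12:26439247-26439897). Levels there were 19.2, 14.5 and 19.3 in control and 45.1, 45.3 and 41.4 in MMF, 2.51-fold higher (1.33 ± 0.18, adjusted p = 0.00177, limma), and 0.97 after centering (adjusted p = 0.0139). In all 3 regions every MMF sample was more than 2 times the highest control sample, whereas the promoters of the same genes differed by -0.10, 0.30 and 0.17.

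The other pair of called regions changed less. A region between genes, 24988 bp downstream of the start of Trim25 (chr11:89024168-89024660), had 42.5, 37.6 and 43.5 in control and 56.1, 75.1 and 71.0 in MMF (0.70 ± 0.18, adjusted p = 0.0211, limma). Isg20 encodes an exonuclease that degrades viral RNA, and a region 10057 bp upstream of its start, in an intron of Aen (chr7:78903210-78903793), had 48.0, 36.2 and 45.1 in control and 63.8, 68.0 and 75.4 in MMF (0.69 ± 0.18, adjusted p = 0.0225, limma). The groups did not overlap in either region. Relative to the median region, the differences were 0.35 (adjusted p = 0.158) and 0.33 (adjusted p = 0.180), and the calls were lost. By limma they were also lost without the second control sample (adjusted p = 0.0627 and 0.0707), without the second MMF sample (adjusted p = 0.0773 and 0.0613) and without the third MMF sample (adjusted p = 0.0660 and 0.0745).

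**Figure D3:**
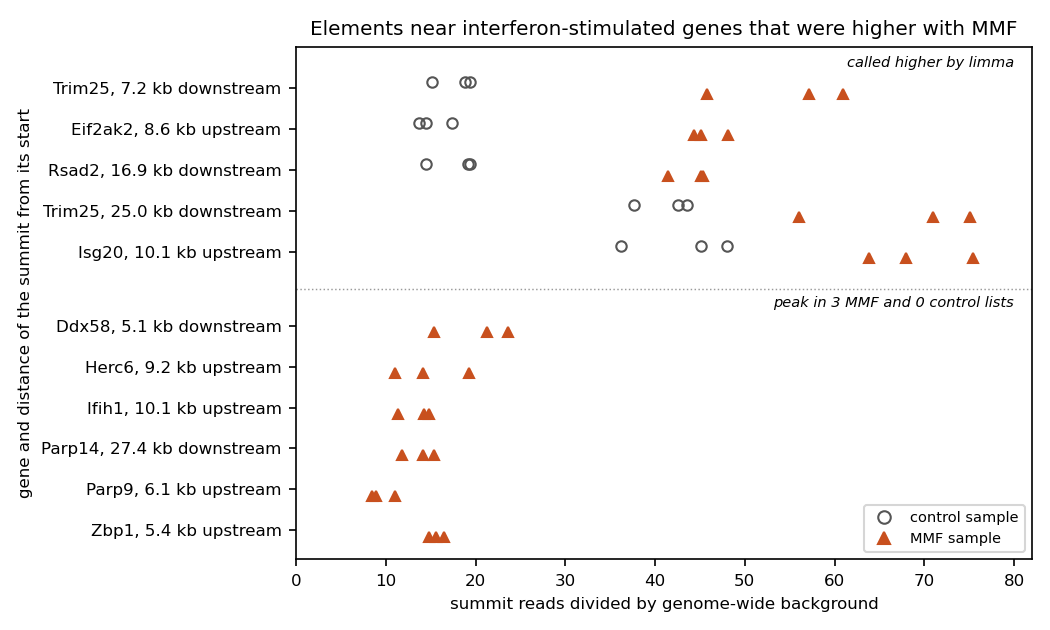
Summit levels by sample are plotted for the 5 regions called higher (upper) and the 6 regions with a peak in 3 MMF and 0 control lists (lower), with open circles for control and filled triangles for MMF, and each region is named by a gene and the distance of its summit from the start of that gene. The MMF samples of the upper 3 regions lie between 41.4 and 60.9 and their control samples between 13.7 and 19.3.

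The sequences at the summits of 4 of these regions and of a gained region are shown because these are the elements that moved near the set. Each is 120 bases of the plus strand of GRCm38 centered on the summit. Capitals mark matches to the ISRE or to 3 motifs searched after the regions were known, TTGCNNAA for C/EBP, GAGGAAGT for PU.1 and GGAA, a pair of bases and GAAA for the ETS-IRF composite, on both strands. ISRE and ETS-IRF letters can overlap.
Trim25: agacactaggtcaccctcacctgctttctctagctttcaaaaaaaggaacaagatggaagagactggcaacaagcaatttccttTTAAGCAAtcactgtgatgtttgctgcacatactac
Eif2ak2: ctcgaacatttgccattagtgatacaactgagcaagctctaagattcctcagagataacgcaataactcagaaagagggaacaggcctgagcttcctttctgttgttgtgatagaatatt
Rsad2: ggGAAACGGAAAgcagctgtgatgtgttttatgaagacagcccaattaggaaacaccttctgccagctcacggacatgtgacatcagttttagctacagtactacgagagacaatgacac
Isg20: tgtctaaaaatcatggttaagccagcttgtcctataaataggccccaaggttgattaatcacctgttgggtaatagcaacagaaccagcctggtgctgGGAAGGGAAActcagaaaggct
Ifih1: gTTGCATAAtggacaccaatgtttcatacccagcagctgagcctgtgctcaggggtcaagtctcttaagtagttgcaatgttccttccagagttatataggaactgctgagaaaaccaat

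These windows lie at chr11:89006479-89006598 for Trim25, chr17:78891107-78891226 for Eif2ak2, chr12:26439516-26439635 for Rsad2, chr7:78903307-78903426 for Isg20 and chr2:62656248-62656367 for Ifih1. The capitals mark C/EBP letters in Trim25 and Ifih1, an ISRE in Rsad2 and ETS-IRF letters in Isg20. In the 200 bp around the summit, the Eif2ak2 region also held the interferon-gamma and PU.1 letters, outside the printed stretch. Over the 123 member regions, 4.88% held an ISRE, against 2.64% of all regions. Those with an ISRE include the promoter peak of Oas2, already counted among the promoter matches, and a peak in the promoter of Tap2. C/EBP letters were in 18.7% of the 123 regions, against 14.9%, PU.1 letters in 8.94%, against 8.27%, and ETS-IRF letters in 3.25%, against 3.27%.

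More regions were listed in the longer MMF lists. Control lists held a peak at 73, 71 and 68 of the 123 regions and MMF lists at 92, 100 and 83. A peak was in more MMF than control lists at 58 regions, in more control lists at 21 and in equal numbers at 44. Of the 101 regions outside every promoter window 6 were gained (5.94%), against 6.65% of all such regions near genes and 6% of all regions, and 0 were lost, against 0.177% and 0.182%. With all lists at 58496 peaks, 2 regions were gained and 1 lost, against 2.36% and 1.38% of all regions.

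The gained regions were weak, with 6 to 16 reads over their summits. Sensor genes had 3 of them. Levels in the MMF samples were 14.3, 11.3 and 14.8 at the region 10097 bp upstream of Ifih1 (chr2:62656181-62656382), between genes. They were 15.4, 21.2 and 23.7 in an intron of Ddx58, 5077 bp downstream of its start (chr4:40234594-40234897). At a region 5386 bp upstream of Zbp1 (chr2:173223929-173224445), the gene of a sensor of Z-form nucleic acid, they were 16.5, 15.6 and 14.8. The genes for ISG15 and ADP-ribose modification had the other 3. A region 9224 bp upstream of Herc6 (chr6:57571679-57571901) had 10.999, 14.2 and 19.2, and an intron of Parp14, 27433 bp from its start (chr16:35843973-35844240), had 15.4, 14.2 and 11.8. The weakest lay in an exon of Dtx3l, 6105 bp upstream of Parp9 (chr16:35932265-35932482), with 10.999, 8.499 and 8.87. C/EBP letters were within 200 bp around the summit in 4 of the 6, at Ifih1, Zbp1, Ddx58 and Herc6, and in 1 of the 5 called regions. Over all regions the share was 14.9%, but the share over all gained regions was not computed, so that enrichment was not tested.

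Regions with lower values did not pass the test as scaled to background. An intronic region of Dhx58, 2763 bp downstream of its start (chr11:100701183-100701831), had levels of 65.9, 78.1 and 67.7 in control and 46.2, 49.6 and 60.6 in MMF, a difference of -0.44 ± 0.18 (adjusted p = 0.1075, limma). A region in an intron of Tap2, 12925 bp downstream of the start of Psmb8 (chr17:34210334-34211166), had 106, 124 and 96.7 in control and 83.6, 75.1 and 94.6 in MMF, a difference of -0.37 ± 0.18 (adjusted p = 0.182, limma). The groups did not overlap in either region. Both were called lower relative to the median region, with adjusted p-values of 0.0216 and 0.0278. The region 26834 bp downstream of Usp18 (chr6:121272010-121272877) had 39.8, 43.4 and 43.5 in control and 37.4, 26.9 and 39.9 in MMF. The region 18880 bp downstream of Oasl1 (chr5:114942014-114942521), at the start of another gene, had 61.7, 50.6 and 56.4 in control and 52.8, 49.6 and 37.0 in MMF. The groups overlapped in both, with differences of -0.30 (adjusted p = 0.308) and -0.29 (adjusted p = 0.327) by limma. The fifth lowest was a region 42739 bp downstream of the start of Parp9, in an intron of Kpna1 (chr16:35981538-35981896). It had levels of 3282, 3406 and 3162 in control and 2813, 2959 and 2810 in MMF, on 1901 to 2558 reads, far above every other member region. What gives it so many reads was not tested, so that its level is not read as accessibility. The groups did not overlap, with a difference of -0.20 ± 0.15 (adjusted p = 0.412, limma). Relative to the median region these 3 were also called lower, with adjusted p-values of 0.0413, 0.0395 and 0.0345 by limma. The rest of the 7 lay 5424 bp upstream of Bst2 and 6127 bp upstream of Ifi35 (adjusted p = 0.0498 and 0.0404, limma). Both are promoter peaks of other genes, with summits 50 bp from a start of Mvb12a and 18 bp from a start of Rpl27.

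Among the 38 regions, 9 had all MMF samples above all control samples and 4 all below, against 29.1% and 7.68% of all regions tested. Besides the called regions, the 9 included an exonic region of Irf7 1200 bp downstream of its start (chr7:141264834-141265373), with 24.7, 18.8 and 25.8 in control and 38.5, 34.0 and 28.1 in MMF (0.54 ± 0.19, adjusted p = 0.0806, limma). A region between Cmpk2 and Rsad2, 3842 bp upstream of Rsad2 (chr12:26459975-26460535), had 42.5, 55.0 and 49.99 in control and 62.7, 70.8 and 66.5 in MMF (0.45 ± 0.17, adjusted p = 0.0939, limma). The others lay 48669 bp downstream of the start of Ifih1 and 8256 bp downstream of that of Psmb8. A region 6320 bp upstream of Oasl1 was the fifth highest in its difference, with 12.3, 11.6 and 8.06 in control and 20.9, 9.92 and 23.7 in MMF, and its groups overlapped (0.70 ± 0.31, adjusted p = 0.154, limma). The 22 member regions that lay in the promoter of another gene held no call as scaled to background, with a median of -0.01 over the 13 tested. After centering 3 of these were called lower and 0 higher.

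**Figure D4:**
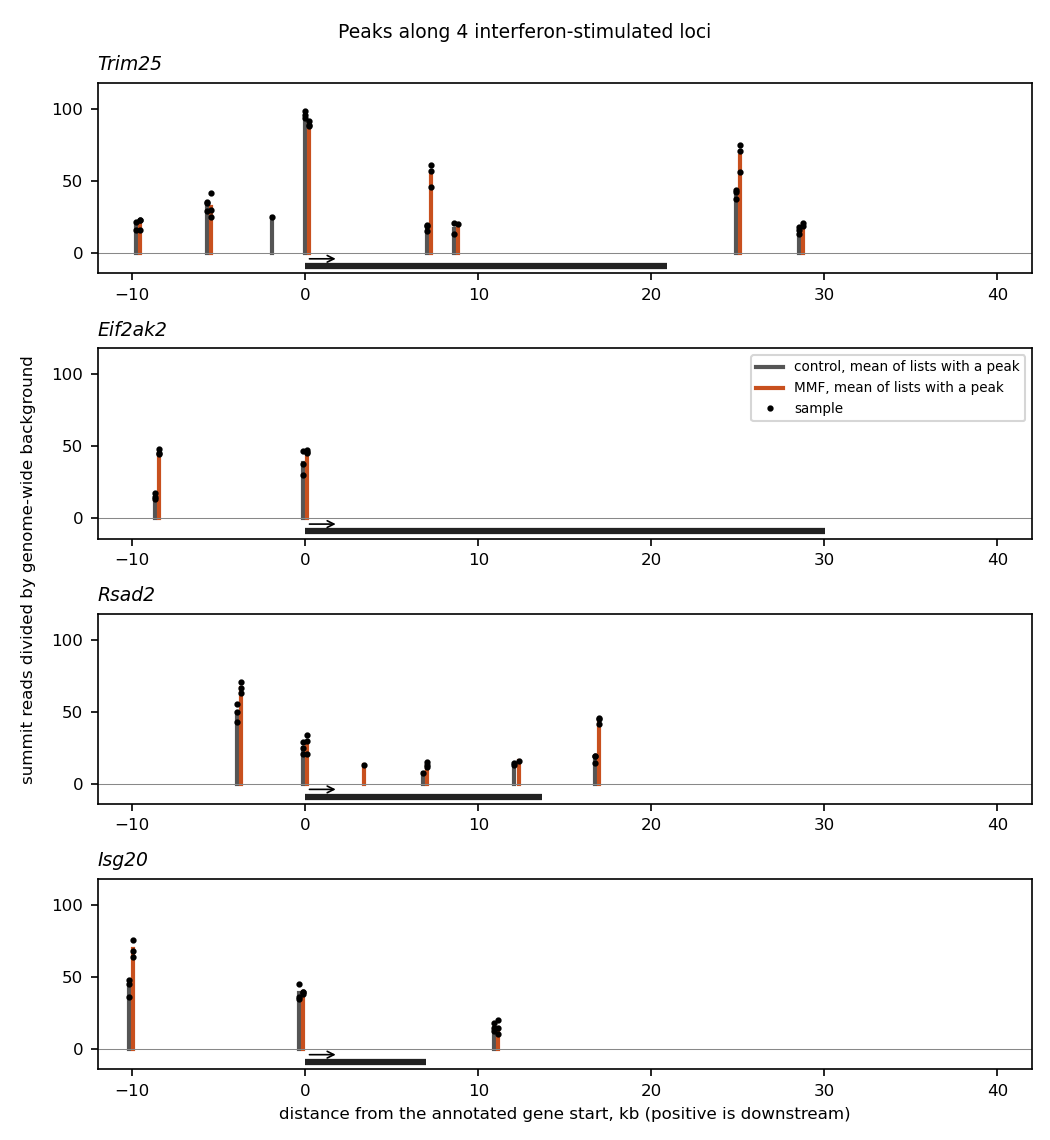
Peaks along Trim25, Eif2ak2, Rsad2 and Isg20 are drawn by distance from the annotated gene start (kb, positive is downstream), with bars for the mean summit level of the lists with a peak (grey control, orange MMF), black points for samples and a black bar for the gene. Bars of the groups are near one another at each start, and the MMF bar is the taller at the regions 7163 bp downstream in Trim25, 8594 bp upstream in Eif2ak2, 16876 bp downstream in Rsad2 and 10057 bp upstream in Isg20. The bars at the start of Isg20 join 2 separate peaks, the first and second MMF samples having the one farther upstream.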

How the data were processed

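The authors aligned ATAC-seq reads of 3 control and 3 MMF samples to mm10 (Bowtie2) and ran MACS2 separately for every sample. The submitters' notes also name FastQC and Trim Galore, and versions are not given in the sources used here. The fold enrichment deposited for each peak is a ratio that sets its summit against local background. The deposited p and q are −log10 values, with a lowest −log10 p close to 3, and the deposited score was not used. Reads were not used, so that the comparison of reads with PePr made in the study was not repeated.

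The whole number of reads over a summit and its background were solved from the fold enrichment and p of each peak, which gave whole reads for 100% of the peaks of every list. The background is its most frequent value in a list. Only peaks of chromosomes 1 to 19, X and Y were used. Genes were the 21938 protein-coding genes and 82 polymorphic pseudogenes of GENCODE M21, the latter type added after the data were seen because Mx2 belongs to it. Regions are the merged union of the 6 lists. Features found in every list were fitted using limma 3.58.1 (functions lmFit and eBayes, R 4.3.3, without a block) on log2 of the summit reads divided by the background, without a pseudocount, with Benjamini-Hochberg adjustment over all features, at 0.05. Error is the standard error of the difference. A peak that a list does not hold is below the threshold of the caller, not closed.

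The steps were tested on simulated data. With only 200 promoters shifted, the limma test called 0 of them at a shift of 0.5 on the log2 scale, 151 at 1 and 198 at 2. With 200 regions shifted it called 0 at 0.5, 0 at 1 and 174 at 2. In the data far more of the 41182 regions were called, 7643 higher and 399 lower, and differences of 0.69 and 0.70 passed. The simulated counts for regions therefore do not give the detection limit of the region test. The differences of the member promoters lay between -0.63 and 0.81, so that a real change of about 0.5 may go uncalled. The members and lists were chosen with earlier results of these data known. Values in every sample are given for Stat2, Irf9, Irf7, members called or with groups that do not overlap, the 5 members and the 5 regions with the largest difference in each direction, and regions called, gained or lost. Usp18, Herc6, Parp9, Dtx3l, Psmb9, Tap1, Rtp4 and the genes of the pathway were shown after their values were seen. Motifs were searched in GRCm38 with pysam 0.24.0, and scripts used Python 3.11.15, pandas 2.3.3 and scipy 1.17.1. Alternatives covered the measure, scaling, q, lists required, block, prior variance, windows, overlap, list length and each sample left out. Intervals cover counting error only. One gene of the pathway is not reported here by name.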

Additional observations from a re-analysis of the deposited data

How the results depend on the processing

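The median difference of the member promoters was 0.0729 with normal scores of ranks by fold enrichment and -0.200 with ranks in lists of equal length, where the median of all promoters was -0.262. It ranged from 0.0176 to 0.0787 when 1 sample was left out, and was -0.0094 with a window of 500 bp. The count of members called higher was 1 with a prior variance that follows the mean, which raised the lower calls over all promoters from 61 to 343, and ranged from 0 to 2 when 1 sample was left out, with Ifih1 and Samd9l called without the second control sample. For the regions, 3 were called higher with ranks, 3 higher and 1 lower with ranks at equal length, 3 higher and 7 lower after centering, 9 higher of 64 tested with a peak in at least 2 lists of each group (14.1%, against 16.9% of all regions), 3 lower with the prior variance that follows the mean (1271 over all regions in place of 399), and 11 higher and 2 lower with 50 kb around genes. The count ranged from 3 to 5 when 1 sample was left out, and it was 3 without the second control sample and 3 without the third MMF sample. Their median was 0.177 with ranks, -0.0521 with ranks at equal length, -0.278 after centering, 0.154 with 2 lists of each group, and 0.0770 to 0.152 with 1 sample left out. The regions of Trim25 7163 bp downstream, Eif2ak2 and Rsad2 kept their call in every alternative in which they were tested. The Eif2ak2 region was not tested where a peak had to cover most of the merged region. Gained regions numbered 2 and lost regions 1 at equal list length. With 1 sample left out, 6 to 13 regions were gained (12 without the first and 13 without the second control sample), 0 to 1 lost, and 0 to 1 promoters gained.

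Single values near 0 changed sign. Irf9 was 0.278 with ranks, 0.138 at equal length, 0.116 with the fold enrichment as deposited, 0.0294 after centering and -0.171 to 0.158 with 1 sample left out. Trim25 was 0.0409 with ranks and 0.0379 with fold enrichment, Dhx58 -0.0110 at equal length, and Cmpk2 -0.156 to 0.0494 with 1 sample left out. The regions 18880 bp downstream of Oasl1 (0.0431 with ranks, 0.0222 with fold enrichment) and 42739 bp downstream of Parp9 (0.0754 with ranks) also turned. The deviations of same-numbered samples had correlations between -0.001 and 0.0105 over promoters. With few reads at many summits, such values cannot tell whether these samples shared a mouse or culture. With the replicate number as a block, 0 member promoters and 5 member regions were called higher, and over all promoters 171 were called higher and 29 lower in place of 209 and 61. The block changed no call at a member. Weak summits of few reads limit what could be detected.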
